A study of Mus musculus with 6 samples.

Results

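Expression of the genes for oxidative phosphorylation was followed in mouse embryos with and without Fgfr2 in the fornix of the conjunctiva, a receptor for fibroblast growth factors. The genes were taken by name: every gene whose annotated symbol starts with Nduf, Uqcr, Cox4, Cox5, Cox6, Cox7, Cox8 or Atp5, or is Sdha, Sdhb, Sdhc, Sdhd, Cyc1 or Cycs, with 1 pseudogene probe left out. This gave 88 genes read by 138 probes, of 19057 named genes and 45281 probes on the Illumina BeadChip. By role they are 34 genes of complex I, 4 of complex II, 9 of complex III and cytochrome c, 17 of complex IV, 16 of complex V and 8 complex I assembly factors, whose Nduf names bring them in although they are not subunits.

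The respiratory chain sits in the inner mitochondrial membrane. Complex I takes electrons from NADH and complex II takes them from succinate, complex III passes them to cytochrome c, and complex IV hands them to oxygen; the proton gradient built on the way drives ATP synthase, complex V. Most subunits are encoded in the nucleus, a small set of catalytic ones lies in mitochondrial DNA, and every complex but complex II needs both sets. Nuclear promoters of these genes are known for binding sites of NRF1 and of the ETS-family factor GABP.

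The KO group held 3 embryos with the genotype Fgfr2 fx/fx and a Le-Cre transgene, which drives Cre in the ectoderm that forms the ocular surface, and the WT group held 3 wild type embryos. All were taken at E14.5 on a mixed FVB and 129 background, with 1 embryo per array and all 6 arrays on 1 slide. The WT embryos lacked Le-Cre, so the transgene and the loss of Fgfr2 cannot be told apart. The epithelium was cut from 10 µm sections with a laser and 15 ng of RNA per embryo was amplified; the extraction text speaks of lens tissue, whereas the tissue label is conjunctival epithelium, which was followed here.

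Of the 4 Fgfr2 probes, 1 had a detection p of 0.05 or more on all 3 KO arrays and was detected on all 3 WT arrays, with 4.64, 4.46 and 4.89 in KO embryos A, B and C and 5.07, 6.14 and 5.48 in WT embryos A, B and C on the log2 scale. The other 3 were detected on all 6 arrays, and none was lower in KO on average. The brightest gave 12.11, 12.34 and 12.30 in KO and 12.16, 11.97 and 12.15 in WT, another gave 10.37, 9.75 and 9.36 in KO and 8.80, 9.01 and 9.08 in WT, every KO embryo higher, and the last gave 8.74, 8.22 and 7.44 in KO and 7.39, 7.22 and 7.77 in WT, overlapping. Which of the probes lie in the deleted exons is not given in the sources used here, so these probes do not check the labels. Detection was called for 34.2 to 34.9% of all probes in KO embryos and for 48.5 to 50.6% in WT embryos, with median raw signals of 101 to 106 and 117 to 126. The lower detection moved with genotype throughout, and its part in the results below was not tested.

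Promoter sequences were searched for letters known from genes of this kind, and most members held none of them: 16 of 73 (21.9%) had either motif. In the 150 bases before the annotated start, RefSeq (GRCm38.p6) held a sequence for 73 of the 88 genes. The ETS core CCGGAAG, on either strand, was found in 12 of 73 (16.4%), against 6.33% of 27025 genes in the table; among genes tested on the arrays the shares were 17.1% and 13.4%. The NRF1 consensus, a palindrome given in capitals in the last 2 windows printed here, was found in 4 of 73 (5.48%), against 0.733% of all genes, and in 5.71% of tested members against 1.57% of tested genes. No member held both motifs, and a match of letters is not a binding site. Windows with a motif are printed for Uqcrh, Sdhd and Ndufaf4, among the members with the largest differences below, and for Cox6b1 and Atp5g2 as members of complexes IV and V. Each runs 5′ to 3′ on the gene's strand and ends at the last base before the start, and capitals mark the ETS core or its reverse complement CTTCCGG (Uqcrh, Sdhd, Cox6b1) or the NRF1 letters (Ndufaf4, Atp5g2).
Uqcrh (chr4:116075071-116075220, minus strand): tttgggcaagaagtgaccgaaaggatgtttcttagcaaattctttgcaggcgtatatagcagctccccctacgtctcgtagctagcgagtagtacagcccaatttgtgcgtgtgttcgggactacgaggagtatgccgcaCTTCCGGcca
Sdhd (chr9:50603850-50603999, minus strand): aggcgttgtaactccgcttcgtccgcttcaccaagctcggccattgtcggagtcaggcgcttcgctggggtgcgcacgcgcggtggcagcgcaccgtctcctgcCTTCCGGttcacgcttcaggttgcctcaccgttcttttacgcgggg
Cox6b1 (chr7:30626115-30626264, minus strand): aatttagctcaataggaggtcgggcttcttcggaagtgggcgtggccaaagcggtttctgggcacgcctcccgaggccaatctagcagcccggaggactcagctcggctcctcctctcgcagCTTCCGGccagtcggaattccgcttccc
Ndufaf4 (chr4:24897933-24898082, plus strand): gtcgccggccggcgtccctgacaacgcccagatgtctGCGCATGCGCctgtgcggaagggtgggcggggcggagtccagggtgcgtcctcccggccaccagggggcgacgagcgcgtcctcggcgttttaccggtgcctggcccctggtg
Atp5g2 (chr15:102671048-102671197, minus strand): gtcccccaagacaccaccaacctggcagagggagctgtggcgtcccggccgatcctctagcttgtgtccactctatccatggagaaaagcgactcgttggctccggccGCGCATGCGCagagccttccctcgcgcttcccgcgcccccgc

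Members with the ETS core lay on both sides of 0. The 12 tested members with the ETS core had a median log2 fold change of -0.11, with 6 of 12 below 0, and the 58 tested members without it had -0.28. The 4 with the NRF1 letters (Ndufaf4, Atp5g2, Atp5k and Ndufa11) had a median of -0.71, all 4 below 0, and the 66 without had -0.25. Over all 8457 tested genes with a promoter the medians were -0.23 with the ETS core and -0.10 without it, and -0.18 with the NRF1 letters and -0.12 without them. These are descriptions without a test.

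No oxidative phosphorylation gene passed the test between KO and WT embryos. Of 88 genes, 81 passed the filter on low signal (detection at p below 0.05 by at least 3 of 6 arrays), and 0 of 81 had an adjusted p below 0.05 in limma, where 2.41% of the 13916 tested items passed (0.826% higher and 1.59% lower in KO). The smallest adjusted p was 0.0896, for Ndufb3. Of the 81, Cox6b2 and Ndufaf7 were undetected on all KO arrays and passed the filter through the WT arrays alone (2.47% of members); 7.70% of all items were undetected throughout 1 group. At an unadjusted p below 0.05 there were 11 members (13.6%, against 19.4% of all items), and all 11 had lower means in KO (11.9% of all items were lower and 7.51% higher at that p): Ndufa7, Ndufb3, Ndufb6, Sdhb, Sdhd, Uqcrh, Cox6b2, Atp5a1, Atp5g3, Ndufaf1 and Ndufaf4. The call of 0 depended on scaling: 5 members were lower when arrays were scaled by their medians (Ndufaf1, Ndufaf4, Ndufb3, Sdhb and Uqcrh), where 7.67% of items passed, and 10 with no scaling between arrays, where 14.9% passed. Without KO embryo A only Ndufa9 passed (4.04% of items did), and without KO embryo B only Sdha (4.09% of items), both lower in KO. Both KO arrays left for Sdha did not detect it, so that call sets WT signal against background. KO C, kept in the call for Ndufa9, did not detect that gene.

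Most members nonetheless had lower mean signals in KO. The log2 fold change, always KO minus WT, was below 0 in 61 of 81 members (75.3%), against 54.3% of all tested items, and its median was -0.29, against -0.09 for all items. In bulk tissue such as this, fewer cells of a type and less RNA per cell cannot be told apart. All 3 KO values lay below all 3 WT values in 19 members (23.5%, against 17.2% of items), and above them in 2 members, Ndufb7 and Atp5h (2.47%, against 11.3%). Without the items undetected throughout a group, 79 members remained, of which 59 were below 0 (74.7%, against 51.1% of items), 10 had an unadjusted p below 0.05 (12.7%, against 16.2%) and 17 had all KO values lower (21.5%, against 12.6%). Signal level differed between members and items: 7605 of the items and 12 of the members had a mean log2 intensity below 7. There 8 of the 12 members and 47.8% of items were below 0, with medians of -0.53 and 0.06. Between 10 and 11 the median was -0.16 in 23 members and -0.12 in 806 items, with 16 members and 62.3% of items below 0. Between 9 and 10 it was -0.29 in 15 members and -0.21 in 1243 items, with 13 members and 62.7% of items below 0. Between 7 and 9 it was -0.54 in 21 members and -0.34 in 3714 items, with 18 members and 63.4% of items below 0. Above 11 it was -0.14 in 10 members and -0.01 in 548 items, with 6 members and 52.2% of items below 0. The offset from the array as a whole depended on scaling: with median scaling the members' median was -0.48 and that of all items -0.49, with no scaling -0.80 and -0.81, and with cyclic loess -0.17 and 0.09. The 95% confidence interval lay within 1 of 0 on the log2 scale in 24 of 81 (29.6%, against 8.32% of items), and in the other members it reached past -1 or 1. The fold change itself was over 1 in size in 18 members (22.2%, against 28.7% of items).

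**Figure D1:**
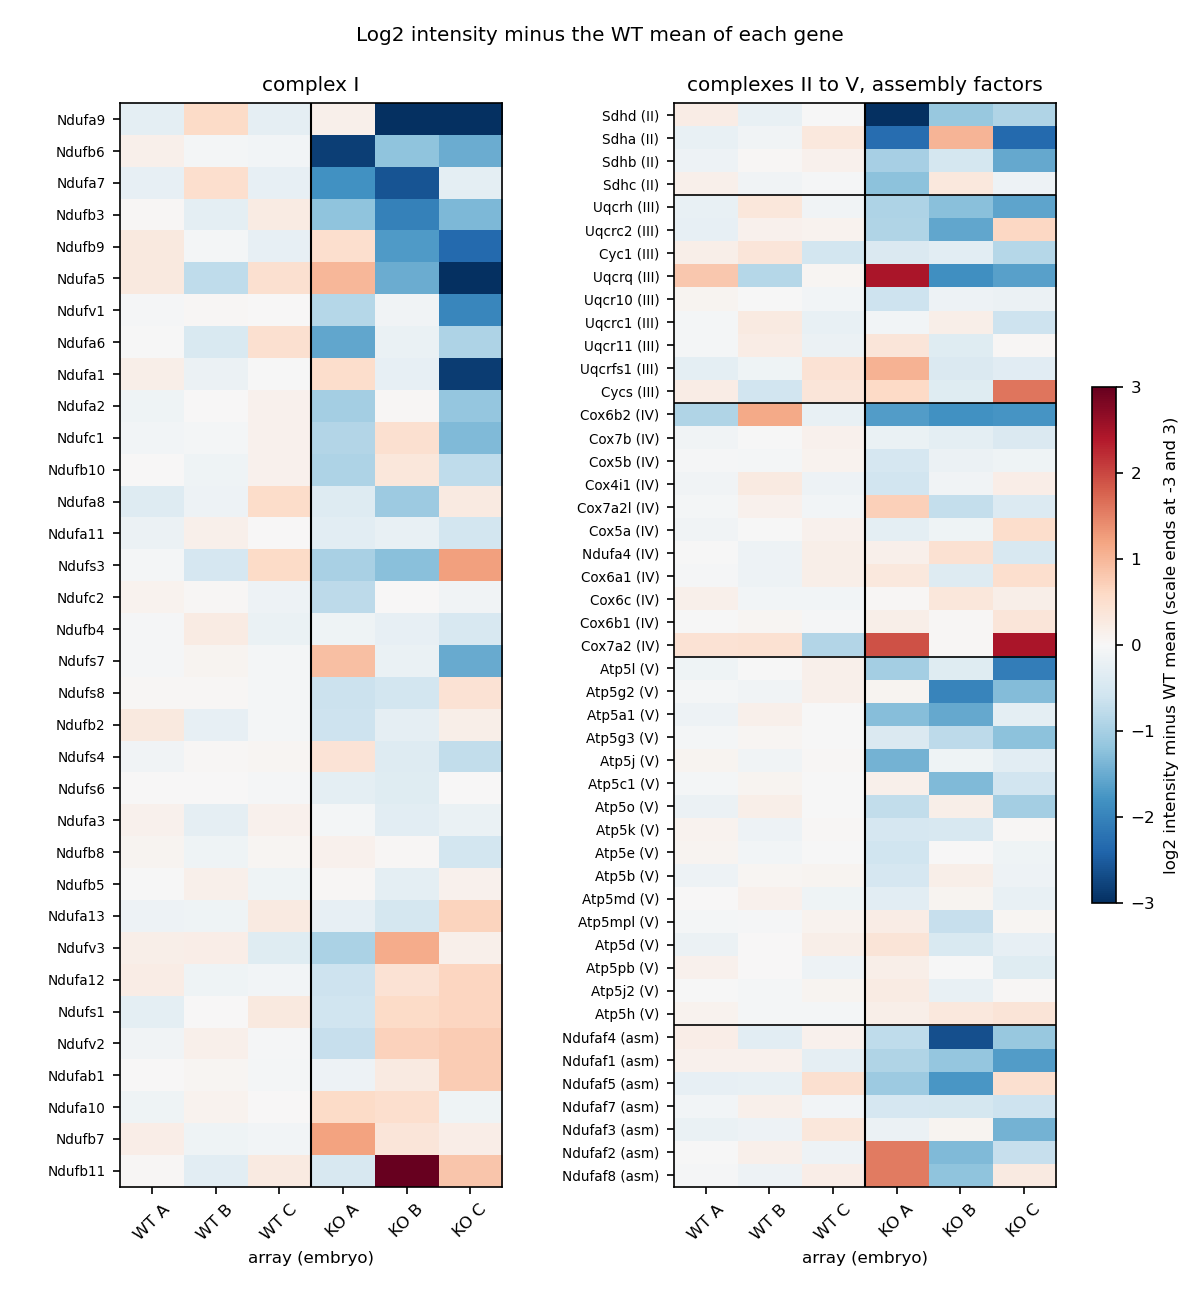
Log2 intensity of the 81 tested genes on each of the 6 arrays, as the difference from the gene's WT mean (color, ended at -3 and 3), ordered by complex (in brackets; asm, assembly factor) and then by fold change. WT arrays stay near 0, where 0, 1 and 0 members of WT A, B and C are more than 1 from the WT mean, and KO arrays hold 20, 24 and 25 such members (24.7, 29.6 and 30.9%, against 42.6, 41.1 and 42.7% of all items), with different genes low on different KO arrays.

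Complex I, the NADH dehydrogenase, had all 34 genes tested, with a median log2 fold change of -0.28 and 26 of 34 below 0. Its 6 core subunits, most of which carry the flavin and iron-sulfur centres, had a median of -0.26, and none of the 6 had an interval within 1 of 0. Ndufv1, the subunit that binds NADH, read 9.72, 10.48 and 8.63 in KO embryos A, B and C and 10.54, 10.60 and 10.59 in WT embryos A, B and C (log2 fold change -0.97 ± 0.50 (SE), adjusted p = 0.360); all KO values were lower, KO C most. Ndufs1, the largest iron-sulfur subunit, read 6.36, 7.53 and 7.60 in KO and 6.66, 6.96 and 7.23 in WT (log2 fold change 0.21 ± 0.43 (SE), adjusted p = 0.833), and the groups overlapped. The core subunits Ndufs3, Ndufs7, Ndufs8 and Ndufv2 overlapped too, with log2 fold changes from -0.33 (Ndufs3) to 0.26 (Ndufv2).

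Among the 28 accessory subunits of complex I, which surround the core and stabilize it, the median was -0.29. Ndufb3, a membrane-arm subunit, read 6.88, 6.06 and 6.74 in KO and 8.13, 7.81 and 8.34 in WT (log2 fold change -1.54 ± 0.35 (SE), adjusted p = 0.0896). Ndufb6, also of the membrane arm, read 6.93, 8.55 and 8.27 in KO and 9.91, 9.69 and 9.68 in WT (log2 fold change -1.85 ± 0.48 (SE), adjusted p = 0.117). In both, every KO embryo lay below every WT embryo by more than the spread of the WT embryos, and neither passed adjustment. Ndufa9, which binds near the quinone site, had the lowest fold change of all members and read 9.05, 5.81 and 4.48 in KO and 8.62, 9.47 and 8.63 in WT (log2 fold change -2.46 ± 1.15 (SE), adjusted p = 0.312). Here the groups overlapped: KO A was within the WT range, KO B was far below it and KO C did not detect the gene. Without KO embryo A the log2 fold change was -3.73 with an adjusted p of 0.0421 (0.0421 to 0.608 over the alternatives). The value of KO C carries no measured level, so that size is not a measured one.

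At the other end, Ndufb7 read 6.90, 6.05 and 5.90 in KO and 5.89, 5.58 and 5.62 in WT (log2 fold change 0.59 ± 0.36 (SE), adjusted p = 0.434); the KO values were all higher by a small margin, and the sign turned under median scaling and with no scaling. Ndufb11, a membrane-arm subunit encoded on the X chromosome, read 4.28, 8.06 and 5.60 in KO and 4.82, 4.46 and 5.05 in WT (log2 fold change 1.2 ± 0.94 (SE), adjusted p = 0.542), and KO B alone was far above the rest. KO A and WT B did not detect Ndufb11. Ndufab1, the acyl carrier protein of mitochondria, read 10.32, 10.73 and 11.22 in KO and 10.47, 10.52 and 10.42 in WT, and Ndufv3 read 8.42, 10.49 and 9.52 in KO and 9.54, 9.56 and 9.0 in WT. Ndufc1 read 7.88, 9.25 and 7.43 in KO and 8.68, 8.71 and 8.90 in WT, and Ndufs4 read 10.48, 9.69 and 9.34 in KO and 9.97, 10.11 and 10.14 in WT. In these 4 genes the KO values reached into or across the WT range, and their adjusted p values lay between 0.597 and 0.940. The remaining accessory subunits had log2 fold changes from -1.57 (Ndufa7, all KO values below all WT values) to 0.31 (Ndufa10, overlapping).

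Complex II, the succinate dehydrogenase, is the only complex here with all of its subunits encoded in the nucleus, and all 4 genes were tested. Its median log2 fold change was -1.11, and no interval lay within 1 of 0. The median lay between Sdhb and Sdha, which not every KO array detected, so its size is not fully a measured one. Sdhd, a membrane anchor, read 6.83, 8.74 and 8.96 in KO and 10.08, 9.66 and 9.87 in WT (log2 fold change -1.69 ± 0.61 (SE), adjusted p = 0.205). Sdhb, the iron-sulfur subunit, read 5.82, 6.31 and 5.29 in KO and 6.67, 6.86 and 6.94 in WT (log2 fold change -1.02 ± 0.35 (SE), adjusted p = 0.189). Both had every KO value below every WT value on the probe that stands for the gene, though KO C did not detect Sdhb. The other Sdhb probes gave -0.46 and -0.55 and overlapped, with KO C above all WT embryos in each. Sdha, the flavoprotein with the succinate site, read 4.32, 7.61 and 4.26 in KO and 6.38, 6.48 and 6.92 in WT (log2 fold change -1.20 ± 0.94 (SE), adjusted p = 0.544), and was detected on 1 KO array. KO B, the array that detected it, was above all WT embryos in Sdha, and KO A and KO C were not above background, so their values carry no measured level. Sdhc, the other anchor, read 9.90, 11.44 and 10.99 in KO and 11.28, 11.02 and 11.09 in WT (log2 fold change -0.36 ± 0.45 (SE), adjusted p = 0.720), overlapping, and its sign turned without KO embryo A. By array, the median deviation of the 4 genes from their WT means was -1.75 in KO A, -0.11 in KO B and -1.22 in KO C. The medians of KO A and KO C rest in part on undetected values, of Sdha in KO A and of Sdhb in KO C. The small median of KO B covered genes on both sides, with Sdha above its WT values and Sdhd and Sdhb below theirs.

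Complex III and cytochrome c had 9 tested genes, a median of -0.31 and 6 of 9 below 0; without KO embryo C the median was 0.00. Uqcrh, the hinge protein between the complex and cytochrome c, read 8.40, 8.07 and 7.75 in KO and 9.10, 9.67 and 9.22 in WT (log2 fold change -1.25 ± 0.32 (SE), adjusted p = 0.116), without overlap. Cyc1, the cytochrome c1 heme subunit, read 7.10, 7.24 and 6.69 in KO and 7.72, 7.92 and 7.01 in WT (log2 fold change -0.54 ± 0.36 (SE), adjusted p = 0.476). Uqcrfs1, the Rieske iron-sulfur protein, read 7.18, 5.70 and 5.78 in KO and 5.85, 6.0 and 6.56 in WT (log2 fold change 0.09 ± 0.49 (SE), adjusted p = 0.948). Both overlapped, and Uqcrfs1 turned sign under median scaling and with no scaling. The core protein Uqcrc1 read 10.46, 10.73 and 9.92 in KO and 10.49, 10.81 and 10.33 in WT, and its partner Uqcrc2 read 8.74, 8.08 and 10.27 in KO and 9.41, 9.79 and 9.75 in WT, with log2 fold changes of -0.17 and -0.62. Cycs, cytochrome c itself, which also triggers apoptosis when released, read 9.27, 8.32 and 10.29 in KO and 8.90, 8.10 and 9.05 in WT (log2 fold change 0.61 ± 0.58 (SE), adjusted p = 0.618), and overlapped. Its other tested probes gave 0.26 and -0.99, the latter detected on no KO array. Uqcrq, a small subunit detected on 1 KO array, had the largest SD between KO embryos of any member, 2.42, with 8.77, 4.48 and 4.68 in KO and 7.13, 5.46 and 6.36 in WT.

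Complex IV, cytochrome c oxidase, had 11 of 17 genes tested and was the 1 complex whose median log2 fold change was not below 0, at 0.04 with 5 of 11 below 0; with no scaling it was -0.41. In 8 of 11 genes the interval lay within 1 of 0. Cox4i1, the main regulatory subunit, read 10.27, 10.74 and 11.05 in KO and 10.73, 11.11 and 10.69 in WT (log2 fold change -0.15 ± 0.33 (SE), adjusted p = 0.844), and overlapped. Cox7b read 9.97, 9.87 and 9.74 in KO and 10.05, 10.15 and 10.31 in WT, and Cox5b read 10.82, 11.15 and 11.20 in KO and 11.29, 11.26 and 11.42 in WT. In both of these small subunits all KO values were lower, by 0.31 and 0.27 on average, and neither passed (adjusted p = 0.576 and 0.644). Another tested Cox5b probe gave 0.22 and overlapped. Ndufa4, once assigned to complex I and now to complex IV, read 10.38, 10.68 and 9.74 in KO and 10.20, 10.07 and 10.39 in WT (log2 fold change 0.04 ± 0.34 (SE), adjusted p = 0.963), overlapping. Cox7a2l, which joins complexes III and IV in supercomplexes, read 10.32, 8.87 and 9.18 in KO and 9.54, 9.73 and 9.51 in WT, with a log2 fold change of -0.14.

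Several complex IV subunits come in a general form and in forms of muscle, testis or lung. The tested general forms were detected on all 6 arrays, and of the tissue forms Cox6b2 was detected on 3 WT arrays and Cox7a1 and Cox4i2 on 1 WT array each. Cox6a1 read 10.41, 9.69 and 10.59 in KO and 10.05, 9.94 and 10.27 in WT (log2 fold change 0.14), whereas its muscle form Cox6a2 was undetected on all 6 arrays. Cox7a2, the general form of subunit 7a, read 10.06, 8.18 and 10.59 in KO and 8.57, 8.6 and 7.25 in WT (log2 fold change 1.47 ± 0.74 (SE), adjusted p = 0.341). It had the highest fold change of all members, and KO B lay within the WT range while KO A and KO C were above it. Its muscle form Cox7a1 read 4.75, 4.32 and 4.48 in KO and 5.58, 4.63 and 4.56 in WT and was detected on WT array A alone, and Cox4i2, the form known from lung, was likewise detected on 1 WT array (4.46, 4.52 and 5.35 in KO and 4.41, 4.93 and 4.45 in WT). The muscle form Cox8b and the testis forms Cox7b2 and Cox8c were undetected on all 6 arrays. Cox6b1 read 12.07, 11.93 and 12.26 in KO and 11.87, 11.95 and 11.85 in WT (log2 fold change 0.19). Its testis form Cox6b2 was detected on all 3 WT arrays and on no KO array, with 4.49, 4.35 and 4.39 in KO and 5.27, 7.29 and 5.94 in WT, a difference of at least 1.72-fold toward lower KO signal (adjusted p = 0.156); its WT values spread widely. Such a bound sets the WT mean against the higher of each KO array's lowest detected signal and the probe's own. Of the striated muscle markers, 7 of 13 were undetected on all 6 arrays and 2 were tested.

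**Figure D2:**
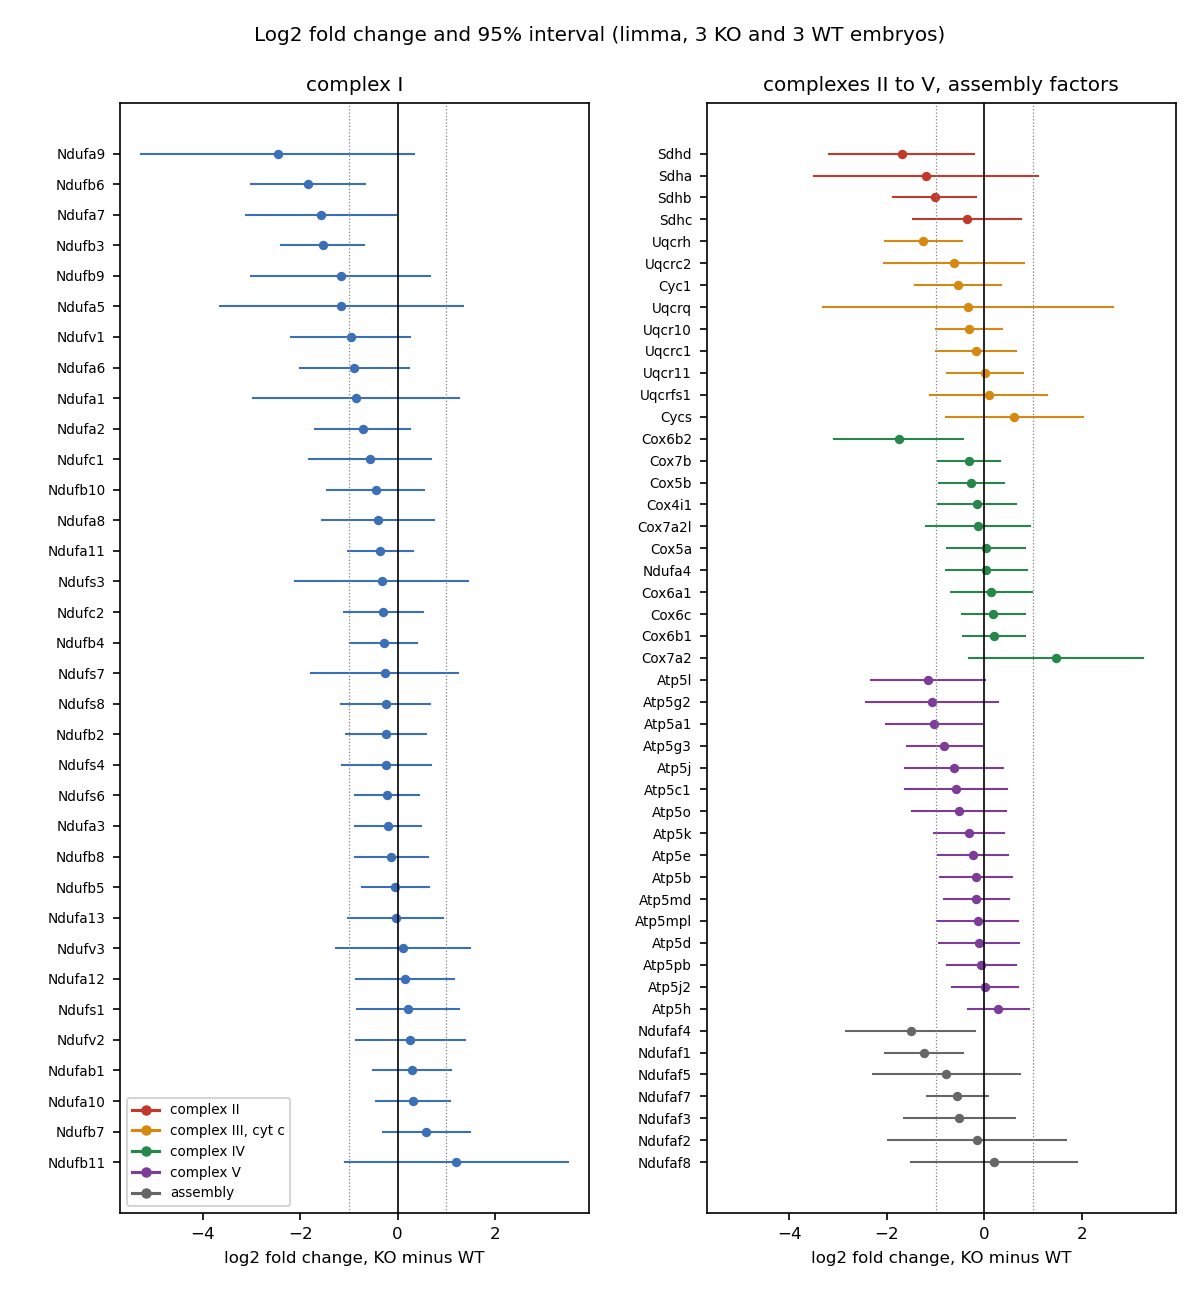
Log2 fold change, KO minus WT, of each of the 81 tested genes with its 95% confidence interval from limma (3 KO and 3 WT embryos), colored by complex; dotted lines mark -1 and 1. The intervals of 11 genes lie wholly below 0, those of 24 lie between the dotted lines, and the widest are those of Ndufa9 and Uqcrq.

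Complex V, the ATP synthase, had all 16 genes tested and detected on all 6 arrays, with a median of -0.27 and 14 of 16 below 0. In 8 of 16 the interval lay within 1 of 0. In the catalytic F1 head, Atp5b, the beta subunit where ATP is made, read 11.52, 12.21 and 11.87 in KO and 11.89, 12.09 and 12.12 in WT (log2 fold change -0.16 ± 0.30 (SE), adjusted p = 0.812), and overlapped. Atp5a1, the alpha subunit, read 9.51, 9.24 and 10.50 in KO and 10.63, 10.94 and 10.77 in WT (log2 fold change -1.03 ± 0.40 (SE), adjusted p = 0.239), without overlap. A second Atp5a1 probe, detected on 1 KO array and all WT arrays, gave -0.04. The other head subunits, Atp5c1, Atp5d and Atp5e, overlapped and had log2 fold changes from -0.58 (Atp5c1) to -0.11 (Atp5d).

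The 11 subunits of the stalk and the membrane-embedded Fo part had a median of -0.31. Atp5l, a small Fo subunit, read 9.71, 10.35 and 8.64 in KO and 10.59, 10.71 and 10.87 in WT (log2 fold change -1.16 ± 0.48 (SE), adjusted p = 0.263). Of the genes for the proton-carrying c ring, which encode the same mature protein, Atp5g2 read 9.93, 7.86 and 8.54 in KO and 9.79, 9.75 and 9.99 in WT (log2 fold change -1.07 ± 0.55 (SE), adjusted p = 0.363) and Atp5g3 read 10.72, 10.39 and 9.94 in KO and 11.12, 11.23 and 11.16 in WT (log2 fold change -0.82 ± 0.31 (SE), adjusted p = 0.226). Atp5l and Atp5g3 did not overlap between groups, and Atp5g2 did, through KO A. The highest fold changes were those of Atp5h, a stalk subunit, with 11, 11.14 and 11.22 in KO and 10.94, 10.79 and 10.78 in WT (log2 fold change 0.29 ± 0.26 (SE), adjusted p = 0.601), and of Atp5j2, with 11.67, 11.19 and 11.45 in KO and 11.41, 11.35 and 11.49 in WT (log2 fold change 0.02 ± 0.28 (SE), adjusted p = 0.980). Atp5h had all KO values higher, and both genes turned sign with no scaling. The stalk subunits Atp5o (9.67, 10.59 and 9.39 in KO and 10.24, 10.59 and 10.40 in WT) and Atp5j (8.73, 10.02 and 9.84 in KO and 10.24, 10.05 and 10.19 in WT) had log2 fold changes of -0.52 and -0.63. Atp5k (10.16, 10.17 and 10.71 in KO and 10.77, 10.52 and 10.70 in WT) and Atp5mpl (11.77, 10.86 and 11.60 in KO and 11.49, 11.50 and 11.65 in WT) had -0.31 and -0.14. On the brightest probe, which stands for the gene, only Atp5j of these 4 genes did not overlap. Its other probes gave 0.97, with every KO value above every WT value, and -0.22. The other Atp5o probes gave 0.56 and 0.70, and that of Atp5k gave 0.52. The other Atp5mpl probe, detected on 1 KO array, gave 0.60.

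The 8 complex I assembly factors help to build the complex without being part of it, and 7 were tested, with a median of -0.55 and 6 of 7 below 0. Ndufaf1, which works on the membrane arm, read 7.17, 6.90 and 6.40 in KO and 8.19, 8.20 and 7.80 in WT (log2 fold change -1.24 ± 0.33 (SE), adjusted p = 0.120). Ndufaf4 read 6.28, 4.40 and 5.90 in KO and 7.23, 6.73 and 7.17 in WT (log2 fold change -1.51 ± 0.54 (SE), adjusted p = 0.204). Neither overlapped between groups, but KO B did not detect Ndufaf4, so the size for that gene is not fully a measured one. Ndufaf2 read 9.57, 6.70 and 7.34 in KO and 8.01, 8.17 and 7.88 in WT, and Ndufaf8 read 7.47, 4.70 and 6.19 in KO and 5.88, 5.75 and 6.11 in WT. In both, KO A was the highest and KO B the lowest of all 6 embryos, and the adjusted p values were 0.940 and 0.906. KO B did not detect Ndufaf8. Ndufaf7 was detected on all 3 WT arrays and on no KO array. Its WT values lay below the lowest detected signals of the KO arrays, so no fold is given. Ndufaf6 was undetected on all 6 arrays.

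The KO embryos differed more among themselves than the WT embryos did, which sets how small a difference could be seen. The median SD between embryos was 0.60 in KO and 0.16 in WT over the 81 members, against 0.80 and 0.30 over all items. The KO SD was the larger in 75 of 81 (92.6%, against 83.0% of items). The spread depended on the signal. Members whose mean log2 intensity over 6 arrays lay between 7 and 9 (21 genes) had a median KO SD of 0.95, and those above 11 (10 genes) had 0.28; the same ranges over all items gave 0.99 and 0.18. Across members, the correlation between arrays was 0.788 to 0.866 among KO embryos, 0.968 to 0.981 among WT embryos and 0.858 to 0.894 between the groups. Over all items it was 0.700 to 0.706, 0.939 to 0.959 and 0.746 to 0.768 in the same order. Genes are not independent replicates. No single KO embryo carried the low values: KO A, B and C were the lowest KO embryo in 25, 28 and 28 members and the highest in 31, 25 and 25. All 3 KO embryos lay below the WT mean in 23 members (28.4%, against 24.2% of items), 2 of them in 37 (45.7%, against 32.8%), 1 in 16 (19.8%, against 26.0%) and none in 5 (6.17%, against 17.0%).

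**Figure D3:**
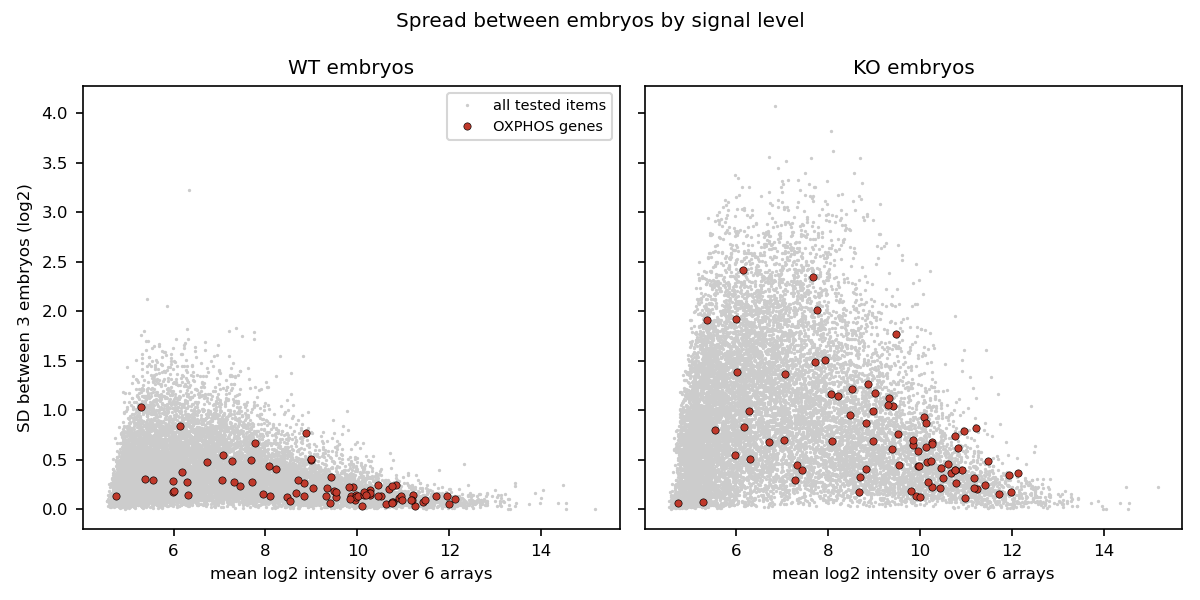
SD between the 3 embryos of a group against the mean log2 intensity over 6 arrays, for WT (left) and KO (right); gray points are all 13916 tested items and red points the 81 oxidative phosphorylation genes. The red points follow the gray cloud in both groups and sit higher in KO, where their median SD is 0.60 against 0.16 in WT.

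Probes of the same gene often differed. In 28 members with 2 or more tested probes, 13 (46.4%) had probes with fold changes of opposite sign, against 48.9% of 4374 such genes on the array, and in 8 the probes differed by more than 1 on the log2 scale. The 2 Ndufaf4 probes gave -1.51, detected on 2 KO arrays and all WT arrays, and 0.91, detected on 1 KO array and on 2 WT arrays. The 4 Ndufs4 probes ran from -0.23 to -2.20, all below 0, and the 2 Ndufb6 probes gave -1.85 and -0.27. For Cox6b1 they gave 0.19 and -1.02, so the small difference of the brightest probe was not shared by the other. With every probe tested on its own, 0 of 119 member probes passed in limma, against 2.06% of all 20853 probes, and 13 had an unadjusted p below 0.05 (10.9%, against 18.5%).

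**Figure D4:**
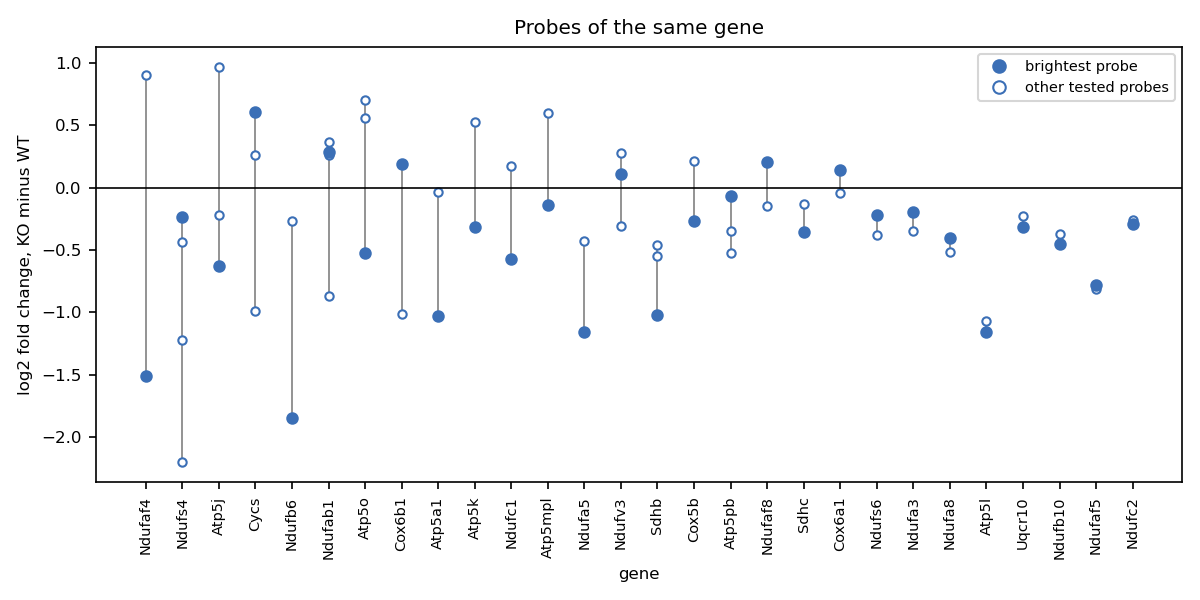
Log2 fold change, KO minus WT, of every tested probe of the 28 members with 2 or more tested probes, ordered by the difference between probes; filled circles are the brightest probe, used for the gene, and open circles the others. Ndufaf4, at the left, spans -1.51 to 0.91 and Ndufc2, at the right, spans 0.03.

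The subunits encoded in mitochondrial DNA were read by probes for 8 genes, and 0 of 8 passed in limma, with a median log2 fold change of -0.40 and 7 of 8 below 0. At an unadjusted p below 0.05 there were 3 (37.5%), ATP6, COX2 and ND4, all lower in KO, against 19.4% of all items and 11.9% lower. Their median KO SD was 0.21. Most of these genes had a mean log2 intensity above 11, where the median KO SD of all items was 0.18. In 6 of 8 all KO values lay below all WT values, against 17.2% of all items, which span all signal levels. ATP6, the proton channel subunit of complex V, read 12.01, 11.95 and 11.59 in KO and 12.87, 13.12 and 13.10 in WT (log2 fold change -1.18 ± 0.28 (SE), adjusted p = 0.0992). COX2, which takes electrons from cytochrome c in complex IV, read 12.73, 12.45 and 12.13 in KO and 13.23, 13.29 and 13.14 in WT (log2 fold change -0.79 ± 0.29 (SE), adjusted p = 0.215). ATP6 passed under 5 other settings, with adjusted p values from 0.0114 with a trended, robust variance to 0.0450 with median scaling and up to 0.348 over all alternatives. ND6 was the gene above 0, at 0.08.

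Among the other pathway lists, assembly factors without Nduf names held the genes that passed at the settings of the report. Of 35 tested, 2 passed (5.71%), both lower in KO, against 1.59% of all items, and the median was -0.29. Sdhaf1, which helps put iron-sulfur clusters into Sdhb of complex II, read 5.87, 5.68 and 5.90 in KO and 8.33, 8.24 and 8.95 in WT (log2 fold change -2.69 ± 0.31 (SE), adjusted p = 0.0190). Its KO values were detected but lay near the lowest detected signals of KO A, B and C (5.41, 5.36 and 5.39). The size depended on the settings, from -1.64 without background correction to -3.83 with no scaling. Cox10, which makes heme a for complex IV, read 4.50, 4.43 and 6.10 in KO and 9.20, 8.15 and 8.14 in WT (log2 fold change -3.49 ± 0.58 (SE), adjusted p = 0.0440), on values that KO arrays A and B did not detect, so the fitted size is not a measured one. Sdhaf1 no longer passed with a trended, robust variance (adjusted p = 0.0505), with array weights (0.0522), with a replicate block or without WT embryo A, B or C, and its adjusted p ran from 0.00410 to 0.155 over the alternatives. Cox10 passed under median scaling, no scaling, cyclic loess, both changes of background handling and without KO embryo C, and its adjusted p ran from 0.00585 to 0.187. A filter on a detection p below 0.01 on all 6 arrays left both untested.

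Other mitochondrial lists held no called gene in limma. The 19 tested regulators of mitochondrial biogenesis had a median of -0.81 with 15 below 0, with the smallest p for the DNA helicase Twnk (adjusted p = 0.0832) and for the coactivator Pprc1, which passed the filter through the WT arrays alone. Only 6 of the 19 were detected on all 3 KO arrays, so the median rests largely on KO values near background. With a detection p below 0.01 on all 6 arrays, 6 regulators were left, with a median of -0.12 and 3 below 0. Without background correction the median of the 19 was -0.26. The 18 genes of the citric acid cycle and pyruvate dehydrogenase had a median of -0.40, and the 2 with the smallest p were Pdhx and Idh3a, with all KO values higher (log2 fold changes 1.01 and 1.90, adjusted p = 0.113 and 0.119). Carriers, pores and import proteins (21 genes) had a median of -0.51, with the smallest p for Tomm7 and Timm8b, small subunits of the import machinery (log2 fold changes -2.32 and -1.23, adjusted p = 0.0573 and 0.104). Calls depended on the settings: Tomm7 was called lower under 7 alternatives, among them median scaling and no scaling but not cyclic loess. Pdhx was called higher with no filter and with the authors' values, and Idh3a higher without KO embryo C. With median scaling Twnk, Pprc1, Mterf3 and Yy1 were called lower as well, and Timm8b and Timm50 too. The 7 other proteins of the ATP synthase and of supercomplexes had -0.18. At an unadjusted p below 0.05 these 4 lists held 5, 3, 7 and 0 genes in the order given, or 26.3, 16.7, 33.3 and 0% of those tested, against 19.4% of all items.

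Markers of other cell types moved with genotype beside these results. Of 12 tested markers of periocular mesenchyme, 6 were higher in KO (among them Col1a1 and Prrx1) and 1, Foxc2, was lower. Of the 12, 10 were detected on all 3 KO arrays and 6 on all 3 WT arrays. Ogn and Prrx1 were undetected in WT, so Prrx1 passed the filter through the KO arrays alone. The log2 of the list's summed signal was 12.08 to 12.80 in KO and 10.61 to 10.95 in WT. Of 5 tested erythroid genes 3 were higher, the globins Hba-a1, Hbb-y and Hbb-b2, with sums of 12.32 to 12.42 in KO and 9.30 to 9.71 in WT. Over all items, 0.826% were called higher in KO and 1.59% lower. Of 14 tested markers of surface epithelium, 13 were detected on all 6 arrays and the other on the WT arrays alone, and 0 of 14 passed in limma. The 4 at an unadjusted p below 0.05 (28.6%, against 19.4% of all items) were all lower in KO, and the lowest log2 fold change was -2.62. The list's median was -0.14, with 8 of 14 below 0, and its sums were 14.16 to 14.41 in KO and 14.36 to 14.46 in WT. Of the lens markers 1 of 3 tested, Cryab, was higher in KO. Leukocyte (5 tested), endothelial (1), nerve and glial (1) and muscle (2) markers held no called gene in limma. Among these, 2 leukocyte genes (40%, against 19.4% of all items) and none of the others had an unadjusted p below 0.05. The part of these cell types in the oxidative phosphorylation values was not tested.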

How the data were processed

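The deposited scanner table gives each probe's average bead signal as an intensity on a linear scale, without background subtraction or normalization between arrays, and, per the file headers, a p-value for detection. GenomeStudio was used, per the submitters' processing notes, which give neither version nor normalization here. The authors' own processed intensities, a further deposited table, served as an alternative. Bead counts and bead errors were not used.

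Background was corrected from the detection p-values (nec, offset 16), followed by quantile normalization and log2, in limma 3.58.1 under R 4.3.3. The filter asked for detection at p below 0.05 by at least 3 of 6 arrays and kept 20853 probes; the brightest probe by mean stood for each gene, which left 13916 items. KO and WT were compared with lmFit and eBayes, with no term but genotype, and p-values were adjusted over all items (Benjamini-Hochberg). Symbols came from the platform's annotation: 34885 probes had 1 symbol, 18 several and 10378 none. The files name no genome build, so coordinates are given for RefSeq promoters only.

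The members and lists were chosen with earlier results of these data known. Values on every array are given for the 2 lowest and 2 highest fold changes of each complex, isoform pairs, electron entry and transfer subunits, genes whose probes differ in sign or by over 1, and members past adjustment; of other lists, called genes or the 2 with the smallest p; the other genes named were chosen after their values were seen. Alternatives covered background and offset, the scaling, the filter, the choice of probe, the variance model, weights for arrays, the authors' values, a replicate block and each embryo left out. The fit was tested on simulated data. The number of arrays limits the precision, and since the labels give 1 embryo per array, p-values measure the spread between embryos. The plots used matplotlib 3.10.9 (Python 3.11.15).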

Additional observations from a re-analysis of the deposited data

How the results depend on the processing

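No member was called higher under any of the 18 alternatives, and members were called lower under 4 of them: 5 with median scaling, 10 with no scaling between arrays (Atp5a1, Cox6b2, Cyc1, Ndufaf1, Ndufaf3, Ndufaf4, Ndufb3, Ndufb6, Sdhb and Uqcrh) and 0 to 1 with an embryo left out. The members' median log2 fold change, -0.29, was -0.21 without background correction, -0.23 with an offset of 50, -0.48 with median scaling, -0.17 with cyclic loess and -0.80 with no scaling, and -0.35 to -0.26 with an embryo left out. By complex, median scaling gave -0.49 (I), -0.64 (III), -0.37 (V) and -1.18 (assembly factors); cyclic loess gave -0.088 (I) and -0.024 (III). No scaling gave -0.80 (I), -2.04 (II), -0.96 (III), -0.41 (IV), -0.69 (V) and -1.50 (assembly factors). Without background correction the assembly factors had -0.18, and with every probe tested complex V had -0.19. With an embryo left out complex III ran from -0.39 to 0.00080. The causes were not tested. Leaving out WT embryo A, B or C left 12, 22 and 32 of all items called, and leaving out a KO embryo gave 554 to 569, against 336.

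Of the 43 members given on every array, 24 kept their sign under every alternative. With median scaling, signs turned for Atp5j2 (-0.092), Ndufa4 (-0.073), Ndufaf8 (-0.51), Ndufb7 (-0.39), Ndufs1 (-0.48), Ndufv3 (-0.080) and Uqcrfs1 (-0.86). With no scaling they turned for Uqcrfs1 (-1.18), Ndufv3 (-0.40), Ndufs1 (-0.80), Ndufb7 (-0.71), Ndufaf8 (-0.83), Cox6a1 (-0.30), Ndufa4 (-0.39), Cox6b1 (-0.28), Atp5j2 (-0.41), Atp5h (-0.12) and Ndufab1 (-0.12). Cyclic loess turned Cox7a2l (0.11) and Ndufaf2 (0.079), and the authors' processed values turned Ndufaf8 (-0.019). With an embryo left out, log2 fold changes ran across 0 for Atp5b (-0.33 to 0.0058), Atp5j2 (-0.10 to 0.15), Atp5mpl (-0.32 to 0.14), Cox4i1 (-0.33 to 0.055), Cox6a1 (-0.037 to 0.40), Cox7a2l (-0.56 to 0.16), Ndufa4 (-0.16 to 0.31), Ndufaf2 (-0.97 to 0.43), Ndufaf8 (-0.51 to 0.89), Ndufs1 (-0.0077 to 0.60), Ndufs4 (-0.56 to 0.017), Ndufv3 (-0.39 to 0.64), Sdhc (-0.69 to 0.085), Uqcrc1 (-0.35 to 0.053) and Uqcrfs1 (-0.39 to 0.33).

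The sample titles give both groups the letters A, B and C. The deviations of same-letter arrays from their group means correlated at -0.029, -0.0043 and -0.0052 across items, and the letters were not treated as pairs. The labels do not say whether embryos of the same letter were paired, and these correlations cannot settle it. With the letter as a replicate block 0 items and 0 members were called in limma, 7 members had an unadjusted p below 0.05, the members' median stayed -0.29, and the smallest adjusted p of a member was 0.231.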
